A study of Mus musculus with 6 samples.

Results

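Among the TCR-β clones of CD4+ T cells from mice with fibrosis-memory, 14507 of 330061 coding clones carried a short complementarity-determining region 3 (CDR3), meaning 11 or fewer amino acid residues with both end residues counted. A clone counted as coding when its CDR3 had neither a stop codon nor a frameshift. The short clones were set against the 308425 coding clones with a CDR3 of 12 to 16 residues. All animals were wildtype C57BL/6 mice, female and 10 to 14 weeks old. Every mouse had a reversible obstruction of the right ureter (RUUO) from day 0 to day 6 and a permanent obstruction of the left ureter (UUO) from day 17 to day 22. CD4+ T cells were taken from the UUO kidney and from the spleen of 3 mice, which gave 1 library per organ and mouse. No mouse without prior RUUO was among these libraries, so the data compare organs and length classes and not fibrosis-memory with its absence. The only transcript measured was TCR-β, so the CD4+ identity of the cells could not be checked against marker genes.

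The CDR3 is the loop of the T cell receptor that touches the peptide in the groove of an MHC molecule, and in the β chain it is built by joining a V, a D and a J gene segment. During the joining, nucleases trim the segment ends and terminal transferase adds bases that no gene encodes. A receptor with few added bases can be made again and again by independent cells, and for this reason such sequences often recur in different individuals, where they are called public. Short CDR3s arise when segments are trimmed deeply, when D is lost or when little is added.

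The 5 short clonotypes whose lowest share of UMIs over the 3 spleens was highest are shown first. Each of these 5 held at most 1 base between V and J. Short clonotypes also found in another spleen held 2.03 ± 0.006 such bases on average (SD over the 3 spleens). Of the 174 found in every spleen, 75 (43.1%) held none. A clonotype here is 1 CDR3 nucleotide sequence with its V and J gene, and each clone in the files was 1 clonotype. Bases between the end of V and the start of J are in capitals, and the rest is germline-encoded.
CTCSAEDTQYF (Trbv1, Trbj2-5): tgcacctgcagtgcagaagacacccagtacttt
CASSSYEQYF (Trbv4, Trbj2-7): tgtgccagcagctcctatgaacagtacttc
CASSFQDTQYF (Trbv4, Trbj2-5): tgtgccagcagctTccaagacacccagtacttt
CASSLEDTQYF (Trbv16, Trbj2-5): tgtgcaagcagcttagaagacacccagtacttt
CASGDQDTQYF (Trbv13-2, Trbj2-5): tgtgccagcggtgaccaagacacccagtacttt

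Of these 5, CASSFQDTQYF held 1 base between V and J and the other 4 held 0. The clonotype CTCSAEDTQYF had 15, 24 and 8 unique molecular identifiers (UMIs, each standing for 1 captured mRNA molecule) in the spleens of mouse 1, 2 and 3. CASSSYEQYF with Trbv4 had 14, 14 and 7 UMIs, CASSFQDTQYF 14, 17 and 6, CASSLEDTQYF 9, 21 and 7, and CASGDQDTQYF 13, 12 and 7. In the kidneys, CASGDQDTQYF had 1 UMI in mouse 1, and none of the other 4 was seen in any kidney. A UMI count follows both the number of cells and the TCR mRNA per cell, and these cannot be told apart.

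The libraries of the 2 organs differed greatly in depth. The spleens held 78078 to 140429 coding clonotypes from 97735 to 224811 coding UMIs, and the kidneys held 473 to 760 coding clonotypes from 693 to 1248 coding UMIs. A UMI of a short clone was covered by 478 to 757 reads in the kidneys and by 8.71 to 21.6 reads in the spleens. A length or gene with a count of 0 could still make up to 0.24% to 0.433% of the UMIs of a kidney. Intervals and limits of this kind cover counting error only, and results on the kidney rest on 16 to 28 short clonotypes per library.

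The share of short CDR3s was compared first between the organs. In the kidney, short CDR3s made up 5.80% of coding clonotypes in mouse 1 (28 clonotypes, 95% Wilson interval 4.04% to 8.25%), 3.55% in mouse 2 (27, 2.45% to 5.12%) and 3.38% in mouse 3 (16, 2.09% to 5.42%). In the spleen the share was 4.399%, 4.36% and 4.45%. The spleens lay close together, while the kidneys lay on both sides of them. The kidney mean of 4.24% ± 1.35 (SD, n = 3) did not differ from the spleen mean of 4.41% ± 0.0464 beyond the spread of the kidney libraries (difference −0.16 percentage points, exact permutation test p = 1, the smallest p possible being 0.1). Leaving out mouse 2 or mouse 3 turned the sign of this difference, to 0.163 and 0.294 percentage points.

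By UMIs, short CDR3s held 4.92%, 4.01% and 2.60% of the kidney libraries and 4.80%, 4.78% and 4.73% of the spleen libraries. The kidney was above the spleen in mouse 1 and below it in mice 2 and 3. The difference was −0.93 percentage points (exact permutation test p = 0.4). It was −1.45 without mouse 1 and −0.33 without mouse 3, and −2.18 among clonotypes of at least 2 UMIs (exact permutation test p = 0.1, the smallest possible).

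**Figure D1:**
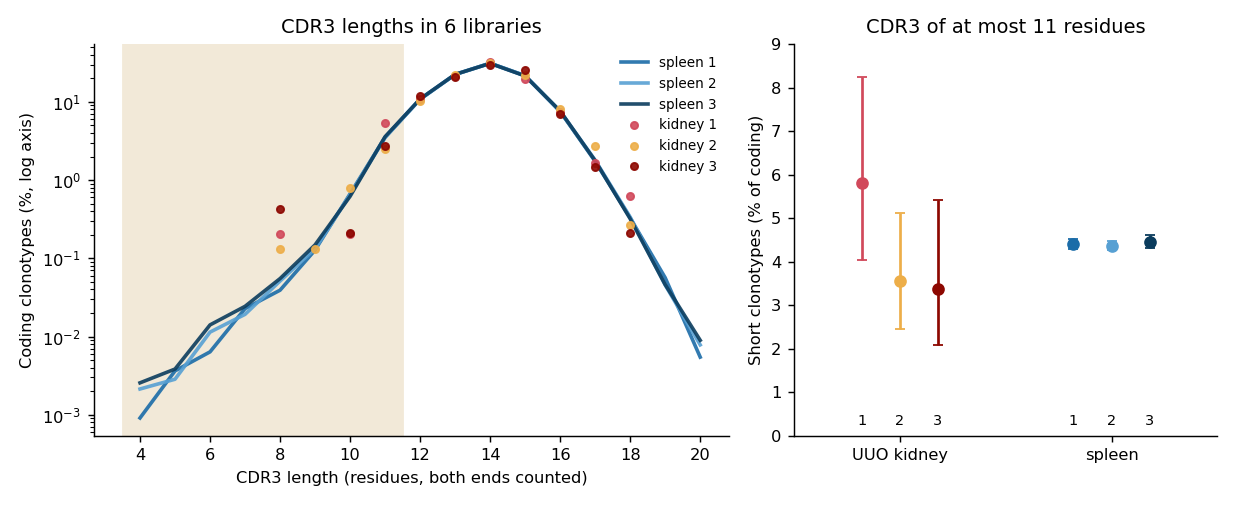
Left, share of coding clonotypes (%, log axis) by CDR3 length in residues for the 3 spleens (lines) and the 3 UUO kidneys (points), with lengths of at most 11 residues shaded. Right, share of short clonotypes by library with 95% Wilson intervals, numbered by mouse. The 3 spleens lie on 1 curve, at 4.36% to 4.45% short clonotypes, and the kidneys scatter from 3.38% to 5.80%.

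Most short CDR3s were only just short. In the spleens, 80.3% of the 14436 short clonotypes had 11 residues, 14.7% had 10 and 5.00% had 4 to 9. Just inside the limit, CDR3s of 11 residues made up 3.54% ± 0.0459 (SD, n = 3) of coding clonotypes, and just outside it those of 12 residues made up 10.8% ± 0.0436. In the kidneys, 58 of 71 short clonotypes had 11 residues, as the counts were 26 in mouse 1, 19 in mouse 2 and 13 in mouse 3.

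Each length was then tested for a difference in UMIs between kidney and spleen. By edgeR (quasi-likelihood test, p-values adjusted after Benjamini-Hochberg), none of the 16 lengths passed (0% called), and 0 had an unadjusted p under 0.05. DESeq2 called 1 length, that of 8 residues. CDR3s of 8 residues had 2, 1 and 2 UMIs in the kidneys and 64, 106 and 57 UMIs in the spleens, a log2 difference of 1.97 ± 1.06 (SE) in edgeR (adjusted p = 0.931) and of 2.02 ± 0.68 in DESeq2 (adjusted p = 0.0477).

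The 4 kidney clonotypes of 8 residues were the shortest seen in that organ and are printed with the bases between V and J in capitals.
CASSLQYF, kidney of mouse 1 (Trbv4, Trbj2-7): tgtgccagcagctTacagtacttc
CASSLGQL, kidney of mouse 2 (Trbv3, Trbj1-4): tgtgccagcagcttGGGACAGttg
WGGAEQFF, kidney of mouse 3 (Trbv29, Trbj2-1): tgGGGGGGCgctgagcagttcttc
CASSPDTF, kidney of mouse 3 (Trbv16, Trbj1-2): tgtgcaagcagcCCGGacaccttc

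A functional β-chain CDR3 begins with a conserved cysteine and ends with a conserved phenylalanine, and 2 of these 4 (CASSLGQL and WGGAEQFF) lacked one of the pair. The same held for the shortest spleen clonotypes. The shortest spleen CDR3s had 4 residues (CTYF, CTCS, CASR, CASS, CASI and CARI), and each of these 6 clonotypes rested on 1 UMI. Of the 122 spleen clonotypes of 4 to 7 residues, 45.9% did not run from cysteine to phenylalanine. This share was 11.8% of the 600 clonotypes of 8 to 9 residues, 1.65% at 10 residues and 0.362% at 11 residues. For 12 to 16 residues, 99.9% ± 0.0284 (SD, n = 3 spleens) of clonotypes had both end residues, against 98.6% ± 0.0599 of all short ones. Missing end residues were thus most frequent at the shortest lengths and rare in the bulk of 10 and 11 residues.

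What short CDR3s had lost was read from the positions at which V, D and J were placed in each sequence. Since the classes were formed by length, the total difference is fixed by that choice, and only its split among the segments is informative. A short spleen clonotype had 32.2 CDR3 bases ± 0.029 (SD, n = 3) and one of 12 to 16 residues 41.8 ± 0.0030. The J segment kept 14.9 bases in short clonotypes and 18.8 in longer ones, and the D segment gave 1.90 and 5.88 bases. V kept 12.7 against 14.03 bases. Inserted bases, those between V and J that were placed in no D segment, were 2.66 ± 0.047 and 3.09 ± 0.022 per clonotype.

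The D bases thus made up 41.4% and the J bases kept 40.4% of the mean difference of −9.61 bases, V 13.6% and inserted bases 4.51%. The part of J includes 7.36% that came from the use of J genes with shorter germline parts. J ends had been trimmed by 5.52 bases in short clonotypes and by 2.34 in longer ones, and V ends by 3.18 and 2.17. A D segment was placed in 28.8%, 30.4% and 29.2% of short clonotypes in the spleens of mouse 1, 2 and 3, and in 73.2% ± 0.151 (SD, n = 3) of longer ones. The shortest D placed was 5 bases, so a shorter remnant of D is counted among the inserted bases. Where 1 D gene could be named, it was Trbd1, whose germline segment is shorter than that of Trbd2, in 70.0% ± 1.89 of short and 56.1% ± 0.968 of longer clonotypes.

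V met J with no base between them in 11.96%, 11.3% and 12.9% of short clonotypes, against 1.63% ± 0.079 of longer ones. The kidneys gave similar numbers from far fewer clonotypes. In short kidney clonotypes J kept 15.1 bases ± 0.804 (SD, n = 3), D 1.87 ± 0.704, V 12.6 ± 0.626 and inserted bases 2.38 ± 0.232.

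**Figure D2:**
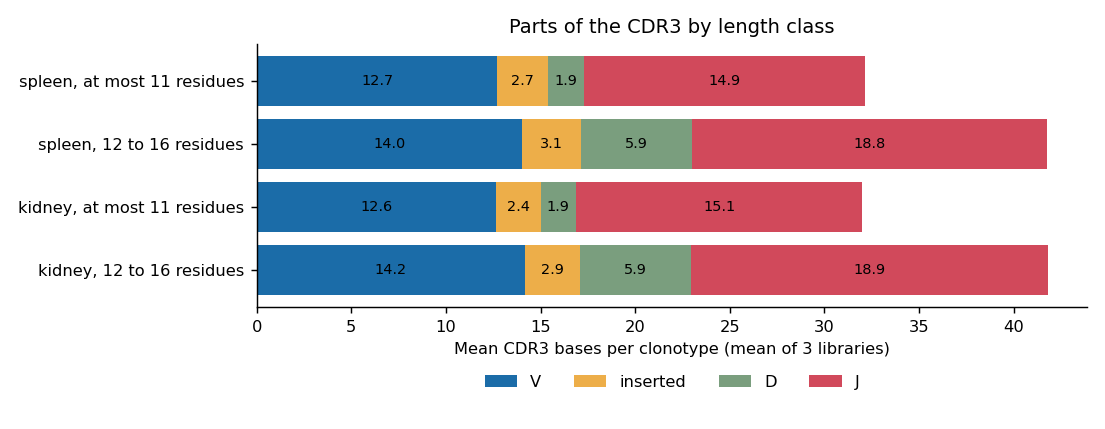
Mean number of CDR3 bases per clonotype (x axis, mean of 3 libraries) that were placed in V, left as inserted, or placed in D or J, by organ and length class. In both organs the short class keeps 1.9 D bases against 5.9 and about 15 J bases against about 19, while inserted bases differ by under 1 base.

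The middle of the loop, taken as the residues after the first 4 and before the last 5 in CDR3s of at least 10 residues, differed in composition between the classes. Glycine, which the D segments encode in every reading frame, made up 16.4%, 16.5% and 16.1% of middle residues in short spleen CDR3s and 25.1% ± 0.041 (SD, n = 3) in longer ones. Tryptophan was at 0.994% ± 0.0861 against 1.97% ± 0.0777. The charged residues went the other way, with aspartate at 12.4% ± 0.242 against 8.30% ± 0.122, glutamate at 6.37% ± 0.289 against 3.18% ± 0.025 and lysine at 1.99% ± 0.106 against 0.779% ± 0.012. Leucine stood at 9.20% ± 0.616 against 5.56% ± 0.105. For each of these 6 residues the 3 spleens of one class did not overlap those of the other. That also held for every other residue except cysteine, proline and valine, so lack of overlap does not set these 6 apart. No test was run on any residue. Because short CDR3s have only 1 or 2 such positions, these residues lie close to V and J.

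V genes were used unequally by the 2 classes. Of 24 Trbv genes tested on UMIs in the spleens, 15 differed between short and 12 to 16 residue clones (62.5% called, edgeR's quasi-likelihood test with the library as a block, adjusted p under 0.05), 8 of them higher in short clones (33.3%) and 7 lower (29.2%). With the spleen library not used as a block, 12 passed. The number of bases that a V gene adds to the CDR3 if untrimmed ranged from 13 to 17, and this was not separated from gene use. Trbv genes lie on chromosome 6 (GRCm38), and each gene gives a variable domain with its own CDR1 and CDR2 loops.

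Among genes higher in short clones, Trbv20 (chromosome 6, 41188273 to 41188977) made up 8.54%, 8.59% and 8.21% of short UMIs in the spleens of mouse 1, 2 and 3, and 3.96%, 4.30% and 4.16% of longer ones. The classes did not overlap, and the log2 difference was 1.03 ± 0.06 (SE, adjusted p = 3.53e-21). Trbv20 has one of the shortest germline CDR3 parts, 14 bases. Trbv30, also with 14 bases, was rare, at 0.572%, 0.419% and 0.476% of short and 0.202%, 0.194% and 0.199% of longer UMIs (log2 difference 1.29 ± 0.38, edgeR adjusted p = 0.00247), and it missed the threshold without mouse 3 (edgeR adjusted p = 0.0940).

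Trbv12-2, Trbv15 and Trbv13-2 were the other leading genes of short clones. Trbv12-2 held 1.55%, 1.16% and 1.39% against 0.650%, 0.618% and 0.823% of UMIs (log2 difference 0.99 ± 0.17). By clonotypes its gap was smaller, at 0.849%, 0.914% and 1.06% against 0.641%, 0.586% and 0.808% (log2 difference 0.50, edgeR adjusted p = 0.0104). Trbv15 held 6.55%, 6.00% and 6.95% against 3.51%, 3.24% and 3.58% (0.91 ± 0.07), although its germline part counts 17 bases, of which 3.85 were trimmed on average. Trbv13-2, the most used V gene of short clones by UMIs, held 13.98%, 14.5% and 15.96% against 10.5%, 11.1% and 11.4% (0.43 ± 0.05).

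The widest gap was on the side of genes that short clones used less. Trbv5 (chromosome 6, 41062359 to 41062803) made up 2.91%, 2.49% and 2.27% of short UMIs and 9.82%, 9.67% and 9.25% of longer ones, a log2 difference of −1.90 ± 0.07 (edgeR adjusted p = 4.71e-30). Only 1.15% of the 30663 spleen clonotypes with Trbv5 were short, against 9.47% of the 14772 with Trbv20. None of the 71 short kidney clonotypes used Trbv5, whereas 139 of the 1603 kidney clonotypes of 12 to 16 residues did.

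Trbv2 held 2.15%, 1.90% and 1.65% of short against 3.99%, 3.94% and 3.56% of longer UMIs (log2 difference −1.01 ± 0.09). Trbv13-3 was at 5.90%, 7.53% and 6.60% against 9.17%, 9.54% and 9.81% (−0.50 ± 0.06), opposite in direction to its close relative Trbv13-2. For Trbv1 the log2 difference was −0.40 ± 0.05 and for Trbv17 −0.32 ± 0.12, and Trbv17 lost the call without mouse 2 (adjusted p = 0.142), without mouse 3 (adjusted p = 0.288), without the block (adjusted p = 0.105) and when clonotypes replaced UMIs (adjusted p = 0.105, all by edgeR). With a limit of 10 residues it was at 0.05 (edgeR adjusted p = 0.837). Reads of near-identical V genes can be assigned to a wrong member, and 0.478% ± 0.199 (SD, n = 3) of short spleen clonotypes had more than 1 V gene listed. Across the 22 Trbv genes with at least 10 short clonotypes, the log2 difference and the germline length went in opposite directions (Spearman's rho −0.477, a description across genes that share the 3 libraries).

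J genes were also used unequally. All 12 Trbj genes passed the same test (100% called), with 3 higher (25%) and 9 lower (75%) in short clones. Shares of UMIs add up to the whole, so that a higher share of one gene lowers those of others. Trbj2-7 (chromosome 6, 41543810 to 41543856), the J gene with the shortest germline part (19 bases), made up 34.2%, 35.1% and 34.5% of short UMIs and 16.5%, 16.3% and 16.9% of longer ones, a log2 difference of 1.06 ± 0.03 (adjusted p = 8.09e-21). The median gene lay at −0.56 on the log2 scale, and scalings that centre the genes called 7 (TMM, median 0.04) and 8 (DESeq2, median 0.01), in each case 3 of them higher. The genes Trbj1-5, Trbj2-1 and Trbj2-4, counted as lower, were at 0.10 to 0.17 under TMM and at 0.07 to 0.14 under DESeq2.

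The direction of the other named genes held under both scalings, but each log2 difference moved upward. Trbj2-5 was at 0.84 under TMM and 0.82 under DESeq2, and Trbj1-4 at −0.26 and −0.29. The log2 differences that follow are without such scaling. Trbj1-1, with 20 germline bases, made up 16.4%, 15.7% and 15.8% of short against 10.1%, 10.4% and 9.68% of longer UMIs (log2 difference 0.66 ± 0.06). Trbj2-5 made up 16.6%, 15.9% and 15.7% against 13.5%, 13.4% and 14.01% (0.24 ± 0.05), but by clonotypes its share was 13.5% ± 0.661 (SD, n = 3) against 13.7% ± 0.324, so it was higher by UMIs and not by clonotypes (log2 difference −0.02, edgeR adjusted p = 0.502). Its call was also lost without mouse 2 (edgeR adjusted p = 0.0579), and with a limit of 10 residues its log2 difference was −0.17 (edgeR adjusted p = 0.118).

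At the other end, Trbj1-6, which has the longest germline part (25 bases), held 0.962%, 0.847% and 0.909% of short against 3.41%, 3.35% and 3.07% of longer UMIs (log2 difference −1.88 ± 0.10). Trbj2-2 followed at −1.81 ± 0.11, Trbj1-3 at −1.79 ± 0.11, Trbj1-4 at −0.87 ± 0.10 and Trbj2-3 at −0.79 ± 0.08. Trbj2-3 missed the threshold without mouse 2 (edgeR adjusted p = 0.0525) and under TMM (edgeR adjusted p = 0.0853). Spearman's rho of the log2 difference and the germline length over the 12 genes was −0.808, again as a description.

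The same tests could not be repeated with much precision in the kidney, where 0 of 20 Trbv genes and 1 of 12 Trbj genes passed. That gene was Trbj2-7, with 8 of 28, 7 of 27 and 8 of 16 short kidney clonotypes. The most frequent V-J pair of short spleen clonotypes was Trbv13-2 with Trbj2-7, at 4.82% ± 0.244 (SD, n = 3), against 1.95% of all longer ones.

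**Figure D3:**
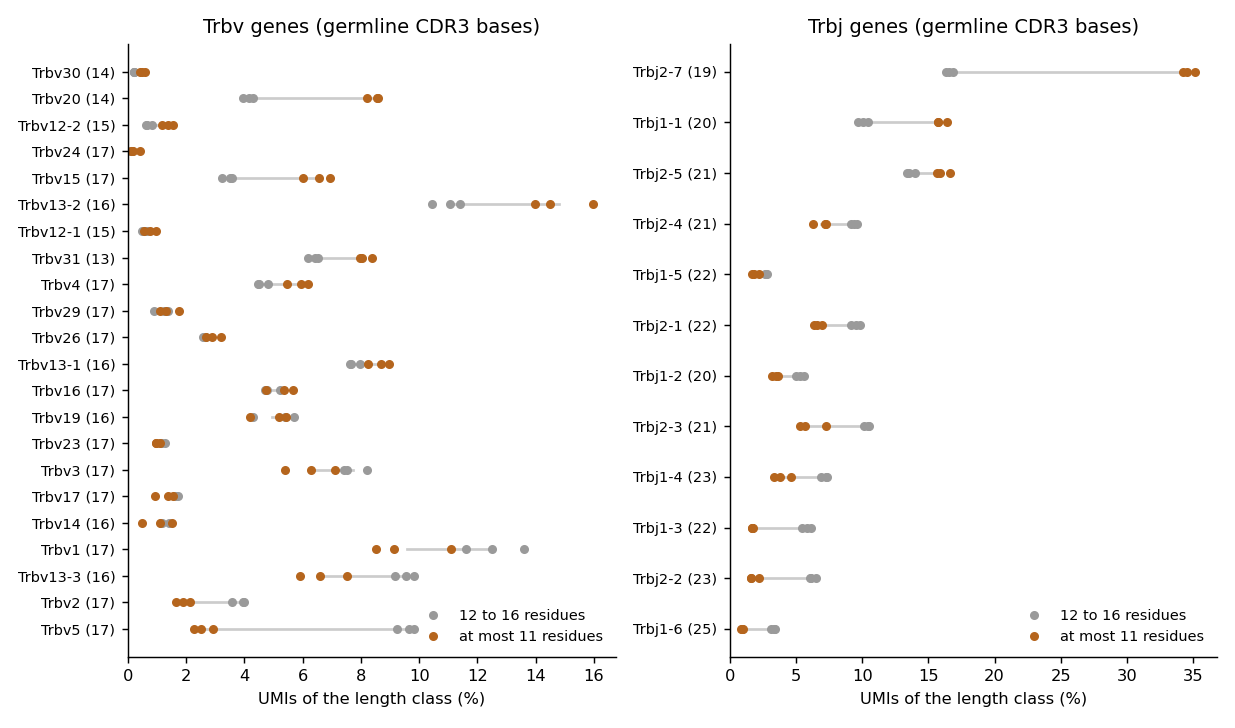
Share of UMIs (%) of each Trbv gene (left) and Trbj gene (right) in short clones and in clones of 12 to 16 residues, 1 point per spleen, for genes with at least 10 short clonotypes. Genes are ordered by log2 difference, and the number after each name is the bases it can give to the CDR3. Trbj2-7 stands out at 34.2% to 35.1% of short UMIs, and Trbv5 shows the widest gap on the lower side.

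Short clonotypes recurred in other mice more often than longer ones. A clonotype was called shared when the spleen of another mouse held the same CDR3 nucleotide sequence with the same V and J. Of short clonotypes, 13.3% (644 of 4832), 11.5% and 16.4% were shared in the spleens of mouse 1, 2 and 3. Of those of 12 to 16 residues, 7.61%, 6.51% and 8.77% were shared, close to the 7.71%, 6.6% and 8.93% over coding clonotypes of any length. Short clonotypes were thus shared more in 3 of 3 spleens, by 6.12 percentage points ± 1.35 (SD of the difference, n = 3, exact permutation of signs, p = 0.25, below which 3 pairs cannot go). With the other spleens reduced to the depth of the smallest, the difference was 5.35 percentage points. Removing mouse 3, which also removes the spleen in which the others are searched, left 3.95.

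Within the class, sharing was highest at 10 and 11 residues, at 14.1% ± 3.11 and 14.3% ± 2.58 (SD, n = 3), which did not differ beyond their spread. It was 11.4% ± 1.72 at 12 residues and 0.717% ± 0.068 at 17. It was also lower on the short side, at 6.08% ± 0.995 for 9 residues. None of the 280 spleen clonotypes of 8 or fewer residues was shared, which allows a share of up to 1.07%.

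The classes were also compared among clonotypes of similar size. Among clonotypes of 1 UMI, 10.1% ± 2.79 of short and 6.15% ± 1.32 of longer ones were shared, and among those of 2 to 9 UMIs 22.3% ± 5.86 and 11.8% ± 2.56, each higher in 3 of 3 spleens (exact permutation p = 0.25). Among those of 10 or more UMIs, 15 of 31, 34 of 52 and 1 of 3 short clonotypes were shared, against 72 of 245, 122 of 367 and 20 of 58 longer ones, so that the short class was above the longer one in mice 1 and 2 and not in mouse 3. By UMIs, shared clonotypes held 20.2% ± 1.30 of the short and 10.0% ± 0.752 of the longer repertoire. In all 3 spleens together, 174 of 13389 distinct short clonotypes (1.30%) and 1278 of 294808 longer ones (0.434%) were found in every spleen.

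The 174 short clonotypes found in every spleen had few untemplated bases. Of them, 80 (46.0%) had no inserted base, against 20.2% ± 1.24 (SD, n = 3) of all short clonotypes of a spleen, and 7 (4.02%) had a D segment placed, against 29.5% ± 0.809. Trbj2-5 was used by 59 (33.9%), against 13.5% of all short clonotypes. Their lengths and use of Trbj2-7 were closer to those of all short clonotypes, with 137 (78.7%) of 11 residues against 80.3% and 66 (37.9%) with Trbj2-7 against 33.6%. No test was run on these shares.

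The number of inserted bases was compared between shared and private short clonotypes. Shared ones had 1.54, 1.54 and 1.55 inserted bases in the spleens of mouse 1, 2 and 3 and private ones 2.88, 2.82 and 2.82, without overlap (difference −1.30 ± 0.042, SD, n = 3, exact sign-flip permutation test p = 0.25). Counting every base between V and J, an alternative added after seeing the data, gave a difference of −2.93 bases. At 11 residues only, shared clonotypes had 1.64 ± 0.023 inserted bases and private ones 2.91 ± 0.040.

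Sharing fell with inserted bases in both classes, and at matched numbers it was still higher in short clonotypes except in the last class. The classes were not matched in all bases between V and J, which averaged 4.56 in short and 8.97 in longer spleen clonotypes. A D segment, whose bases are not counted as inserted, was placed in 29.5% and 73.2% of them. Without an inserted base, 23.6% ± 3.54 of short and 18.6% ± 2.50 of longer clonotypes were shared. With 1 to 2 inserted bases it was 16.7% ± 2.95 and 8.82% ± 1.18, and with 3 to 5 it was 9.69% ± 1.93 and 5.35% ± 0.878. With 6 or more the order turned, at 0.672% ± 0.117 of short and 1.33% ± 0.197 of longer clonotypes, lower in 3 of 3 spleens. Each of these 4 differences had an exact permutation p of 0.25 (n = 3).

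**Figure D4:**
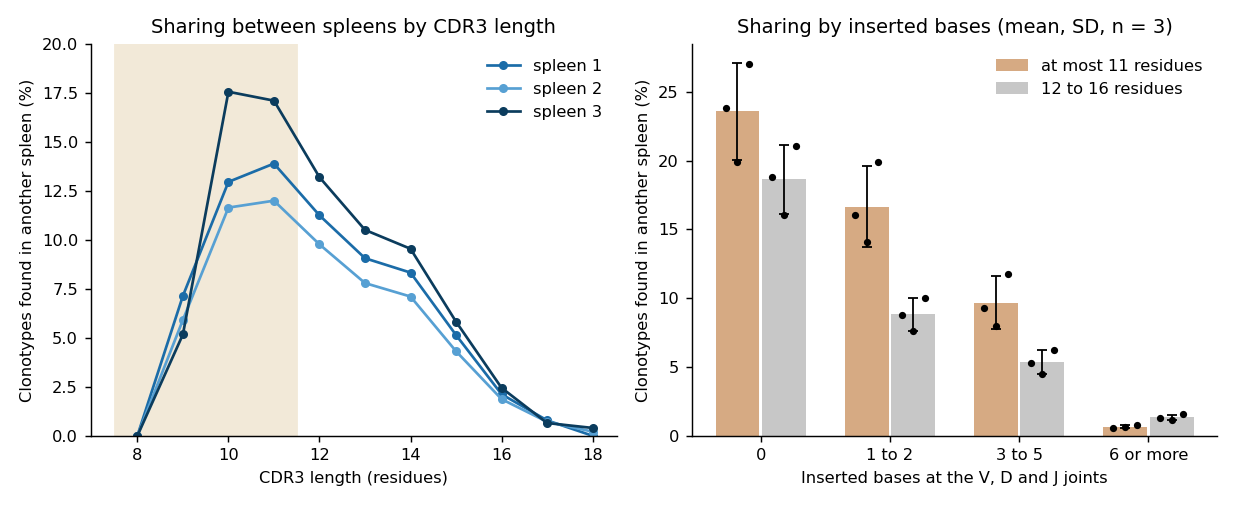
Left, share of clonotypes of each spleen found in another spleen (%) by CDR3 length in residues, with lengths of at most 11 shaded. Right, the same share by number of inserted bases for short clonotypes and those of 12 to 16 residues (bars are means of 3 spleens, points single spleens, error bars SD). Sharing is highest at 10 to 11 residues in each spleen, is 0 at 8 residues, and falls with each step in inserted bases.

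V and J genes were held constant in turn. Among the 15 Trbv genes with at least 50 short clonotypes in each spleen, sharing was higher for short clonotypes in 3 of 3 spleens for 12, the others being Trbv13-3, Trbv2 and Trbv20. With Trbv13-2, 23.2% ± 2.84 of short and 9.30% ± 1.32 of longer clonotypes were shared, whereas with Trbv20 it was 8.81% ± 2.49 and 7.95% ± 1.22. Of the 11 Trbj genes with that number, 8 were higher in 3 of 3 spleens, the others being Trbj1-1, Trbj1-3 and Trbj1-4. Trbj1-1, used more by short clones, had 9.17% ± 1.31 of short and 9.62% ± 1.69 of longer clonotypes shared (higher in 1 of 3 spleens), and Trbj1-4 was higher in 2 of 3. Trbj2-5 had the widest gap, at 24.6% ± 4.22 of short and 7.24% ± 1.16 of longer clonotypes. Trbj1-3 ran the other way in 3 of 3 spleens, at 7.14% ± 1.79 and 11.2% ± 1.75.

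At the level of the protein, the classes were closer. The measure used here matched the CDR3 alone, without V and J. With V and J matched as well, the difference at the amino acid level was 3.31 percentage points. Nucleotide sequences matched without V and J gave 7.53. A short CDR3 amino acid sequence was found in another spleen in 34.4%, 29.7% and 39.3% of cases and a longer one in 30.8%, 26.8% and 34.7%, a difference of 3.69 percentage points ± 0.902 (SD, n = 3, exact sign-flip permutation test p = 0.25). This depended on where the limit was drawn. For CDR3s of 10 or fewer residues the difference was −6.22 percentage points, so that it came from 11 residues, while nucleotide sharing stayed higher under that limit, by 3.72 percentage points. Of 9156 distinct short CDR3 amino acid sequences, 550 (6.01%) were found in every spleen, against 4.54% of 208683 longer ones.

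Several nucleotide sequences can encode 1 CDR3, which is called convergent recombination. Each short CDR3 amino acid sequence was encoded by 1.27, 1.30 and 1.23 nucleotide sequences in the spleens of mouse 1, 2 and 3, and each longer one by 1.22, 1.25 and 1.17. The log2 ratio was 0.06 (3 of 3 spleens, exact permutation p = 0.25), for 10 or fewer residues it was −0.07, and when only variants with the same V and J were counted it was 0.02. By length the number rose from 1.01 ± 0.012 at 8 residues to 1.30 ± 0.038 at 11 and 1.31 ± 0.050 at 12, and was 1.24 ± 0.050 at 14.

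The short CDR3 with the most variants was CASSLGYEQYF, with 28 nucleotide sequences in 31 clonotypes that used 10 Trbv genes and Trbj2-7 alone. The next was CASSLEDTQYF with 22. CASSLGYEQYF had 13, 24 and 14 UMIs in the 3 spleens, from 11, 15 and 9 nucleotide sequences, and 0 in the kidneys. Its 5 leading variants by UMIs are printed, again with the bases between V and J in capitals. They wrote the leucine-glycine middle with different bases, except that the first and the fifth share the same bases there. The fourth and the fifth were tied in total UMIs with variants not printed. Added bases in this list are those placed in no D segment, and they can include a short remnant of D.
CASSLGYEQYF, Trbv15, 2 added bases: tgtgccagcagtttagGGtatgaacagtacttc
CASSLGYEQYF, Trbv16, 4 added bases: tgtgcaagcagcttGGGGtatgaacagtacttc
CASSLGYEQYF, Trbv15, 3 added bases: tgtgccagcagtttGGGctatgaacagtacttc
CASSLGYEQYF, Trbv5, 5 D bases: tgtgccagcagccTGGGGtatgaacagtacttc
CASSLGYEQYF, Trbv3, 2 added bases: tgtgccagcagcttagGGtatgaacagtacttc

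Only the first of these was in all 3 spleens, with 2, 6 and 1 UMIs. The second had 0, 2 and 2 UMIs and the fourth 1, 0 and 1. The end of each is encoded by Trbj2-7.

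Clone size differed little between the classes. Short clonotypes had 1.59, 1.75 and 1.33 UMIs in the spleens of mouse 1, 2 and 3 and longer ones 1.45, 1.60 and 1.25, a log2 ratio of 0.12 (higher in 3 of 3 spleens, range 0.09 to 0.14, exact sign-flip permutation test p = 0.25). Clonotypes of 1 UMI made up 70.1% ± 7.90 (SD, n = 3) of short and 73.1% ± 8.54 of longer ones. At least 10 UMIs were reached by 31, 52 and 3 short clonotypes, which is 0.642%, 0.849% and 0.0863%, against 0.239%, 0.280% and 0.0795% of longer ones. The gap was small in mouse 3, whose spleen was the shallowest. Shared short clonotypes had 2.34 ± 0.594 UMIs and private ones 1.44 ± 0.181.

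The largest short clonotype of each spleen was private to that mouse among the spleens.
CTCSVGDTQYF, spleen of mouse 1 (Trbv1, Trbj2-5): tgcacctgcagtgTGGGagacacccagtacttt
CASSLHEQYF, spleen of mouse 2 (Trbv26, Trbj2-7): tgtgccagcagtctTCatgaacagtacttc
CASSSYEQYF, spleen of mouse 3 (Trbv13-3, Trbj2-7): tgtgccagcagtAGctatgaacagtacttc

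They had 57, 57 and 15 UMIs in their own spleen and 0 in the other two. The first also had 1 UMI in the kidney of its mouse. The last encodes the same CDR3 amino acids as the public Trbv4 clonotype above, with another V gene and 2 inserted bases.

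In the kidney, short clonotypes had 1.36, 1.85 and 1.13 UMIs in mouse 1, 2 and 3, and longer ones 1.62, 1.65 and 1.49. The short class was above the longer one in mouse 2 only (log2 ratio −0.16, range −0.40 to 0.17, exact sign-flip permutation test p = 0.5). Whether the ratio differed from that of the spleen was not tested. Of the 71 short kidney clonotypes, 56 had 1 UMI, and none was in more than 1 kidney. The clonotypes with the most UMIs in each kidney were as follows.
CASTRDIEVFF, kidney of mouse 1 (Trbv15, Trbj1-1): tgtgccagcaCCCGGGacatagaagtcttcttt
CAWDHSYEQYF, kidney of mouse 1 (Trbv31, Trbj2-7): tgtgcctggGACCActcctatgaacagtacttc
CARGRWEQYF, kidney of mouse 2 (Trbv13-3, Trbj2-7): tgtgccagAGGGCGCTGGgaacagtacttc
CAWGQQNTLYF, kidney of mouse 2 (Trbv31, Trbj2-4): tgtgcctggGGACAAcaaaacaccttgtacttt
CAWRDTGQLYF, kidney of mouse 2 (Trbv31, Trbj2-2): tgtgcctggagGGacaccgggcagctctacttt
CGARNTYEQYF, kidney of mouse 3 (Trbv20, Trbj2-7): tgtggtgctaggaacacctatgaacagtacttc
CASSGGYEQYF, kidney of mouse 3 (Trbv13-3, Trbj2-7): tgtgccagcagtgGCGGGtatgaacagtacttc

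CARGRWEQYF was the largest of them, with 14 UMIs in the kidney and 48 in the spleen of mouse 2 and 0 in the other spleens. It has 10 bases between V and J, of which 4 were inserted. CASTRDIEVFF had 4 UMIs in the kidney of mouse 1 and 0 in every spleen, while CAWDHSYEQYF had 4 in that kidney and 6 in the spleen of the same mouse. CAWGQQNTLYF and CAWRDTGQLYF had 4 UMIs each in the kidney and 1 and 6 in the spleen of mouse 2. In mouse 3 the largest held 2 UMIs each, of which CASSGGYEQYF had 1 UMI in the matched spleen and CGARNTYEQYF none.

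The overlap of kidney and spleen was compared last. Of short kidney clonotypes, 15 of 28 (53.6%, 95% Wilson interval 35.8% to 70.5%), 16 of 27 (59.3%, 40.7% to 75.5%) and 7 of 16 (43.8%, 23.1% to 66.8%) were also in the spleen of the same mouse. For 12 to 16 residues the shares were 48.4%, 51.1% and 43.4%. The short class was higher in 3 of 3 mice, by 4.53 percentage points ± 3.94 (SD, n = 3, exact sign-flip permutation test p = 0.25), and this difference was within the intervals of the single kidneys. When only clonotypes of at least 2 UMIs were kept, in the kidney and in the spleen, it was −19.2 percentage points. A kidney clonotype below that count in the matched spleen then no longer counted as found there.

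In the spleens of the other mice, 6 of 28, 3 of 27 and 3 of 16 short kidney clonotypes were found, a mean of 17.1% ± 5.35, against 10.1% ± 1.35 of those of 12 to 16 residues (higher in 3 of 3 mice, exact permutation p = 0.25, n = 3). One of them, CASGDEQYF with Trbv13-2 and Trbj2-7 and no base between V and J, was singled out after its values were seen, and it had 18, 18 and 5 UMIs in the 3 spleens and 1 UMI in the kidney of mouse 2.
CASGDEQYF (Trbv13-2, Trbj2-7): tgtgccagcggtgatgaacagtacttc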

How the data were processed

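CD4+ T cells of UUO kidney and spleen were selected on CD4 magnetic beads and sorted, and TCR-β mRNA was amplified from its 5′ end with UMIs (6 libraries, 3 mice). The authors assembled clones with MiXCR and deposited 1 clone list per library with read counts, UMI counts, the fraction of each, base quality scores and segment positions (GRCm38, mm10, R 4.4.2 in the submitters' processing notes). Deposited UMI counts were used as given, the deposited fractions served as a check, the deposited base quality scores were not used, and noncoding clones were left out. Shares, sharing and sizes were computed per library and tested by exact permutation over 3 against 3 libraries or by sign flips over 3 within-library differences (Python 3.11.15). Lengths and genes were fitted on summed UMI counts with edgeR 4.0.16 (quasi-likelihood, library sizes only, at least 10 UMIs per row, Benjamini-Hochberg, threshold 0.05), with DESeq2 1.42.0 as an alternative, after tests on simulated tables. Adjusted p-values cover every row of a fit.

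Kidney and spleen libraries whose labels carry the same number were taken to come from the same mouse. The spleen of the same number held 52.2% of short kidney clonotypes, against 17.1% in the other spleens. With 1 library per organ and mouse, p-values of the exact tests rest on the spread between mice. The edgeR p-values draw their estimate of spread from all rows of a fit together. In the gene fits both length classes of a mouse also come from 1 library. Very small edgeR p-values are therefore not a measure of the spread between mice alone. Members, lists and tests were chosen with earlier results of these data known. Named genes were up to 5 per direction with the largest difference among those that passed and had 1 direction in every spleen, and any gene in 20% of short clones. Named CDR3s were the leading ones of each kidney (up to 3 without ties), the 5 with the highest lowest share over the spleens, the largest per spleen, the shortest per organ and the one with the most nucleotide variants. Trbv and Trbj names matched RefSeq in 24 of 24 and 12 of 12 cases, from which positions were taken. Alternatives covered the limits of the classes, a minimum of 2 UMIs, clonotype definitions, reads, end residues, likely sequencing errors, depth, scaling, blocks and each mouse left out.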

Additional observations from a re-analysis of the deposited data

How the results depend on the processing

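Of 122 alternative values of the compared quantities, 111 kept direction and side of the threshold, 7 changed sign and 4 counts moved by over 1.5 times. Taking short as 10 or fewer residues turned the amino acid sharing to −6.22 percentage points, the nucleotide variants to −0.0661 (log2), the kidney clone size to 0.042 (log2) and the overlap of kidney and spleen to −5.99 percentage points. A minimum of 2 UMIs, set on kidney and spleen clonotypes alike, turned that overlap to −19.2 percentage points. It left few kidney clonotypes, and it also took out spleen clonotypes of lower count that had served as matches. The cause of these changes in sign was not tested. The difference in share between the organs ran from −0.94 to 0.29 percentage points when 1 mouse was left out, and was positive without mouse 2 (0.163) or mouse 3 (0.294). DESeq2 called 1 length, the kidney libraries alone called 0 Trbv genes and 1 Trbj gene, and TMM called 7 Trbj genes. Leaving out 1 mouse gave 11 to 17 Trbv and 10 to 12 Trbj genes. With the mouse as a block for the organ comparison, p was 1 for the share of clonotypes (−0.161 percentage points) and 0.5 for that of UMIs (−0.93 percentage points), and 0 lengths passed. Without the library block, 12 Trbv and 12 Trbj genes passed. No exact test of 3 libraries could reach the threshold, so these tests say nothing about stability beyond direction. Among the named genes, 188 of 215 alternative values kept their call and direction, 20 lost the call and 7 changed sign. Those that changed sign were, with the kidney libraries alone, Trbv13-3 (0.60), Trbv20 (−0.0086), Trbv13-2 (−0.24) and Trbj1-1 (−0.18), with the limit of 10 residues Trbv17 (0.0481) and Trbj2-5 (−0.17), and by clonotypes Trbj2-5 (−0.0221). The depth of the kidney libraries limits every statement on that organ.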
